A study of Xenopus laevis with 4 samples.

Results

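Cells of an epithelium are held to each other and to the matrix under them by a small number of gene families, and the genes of these families were followed here in Xenopus laevis ectoderm that was or was not given a multiciliated cell regulator. The members were every probe set whose platform symbol, without the .L or .S that marks the long and short subgenome, began as a cadherin (cdh), protocadherin (pcdh), integrin (itga, itgb), claudin (cldn), occludin (ocln), tight junction protein (tjp), laminin (lama, lamb, lamc), collagen (col), fibronectin (fn1), Epcam, Cadm, matrix metalloproteinase (mmp) or Timp gene. This gave 158 probe sets with a single symbol for 102 genes, of 11303 named genes on the array, and each gene was read through its brightest probe set. After the dimmest 25% of probe sets were left out, 62 of the 102 genes remained, of 9380 genes in all. The last member inside that limit was cadm4.L with a mean signal of 10.8, and the first outside it was col9a1.L with 10.4.

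Every embryo had received mRNA for ICD when it had 2 cells; ICD is the usual name of the intracellular domain of Notch, which keeps ectoderm from making multiciliated cells. The MCI-HGR group also received mRNA for MCI-HGR, multicilin fused to a hormone-binding domain so that dexamethasone switches it on, while the ICD group had ICD alone. Presumptive ectoderm (animal caps) was cut at stage 9 to 10 and cultured on coverslips coated with fibronectin, dexamethasone was added to both at stage 11.5, and RNA was taken 5 h later, near stage 14. There were 4 one-colour Affymetrix arrays, numbered 1 and 2 in each group. The labels do not say what a number stands for or whether replicates came from separate clutches. A p-value therefore speaks only for these samples, and in the fits below it also rests on variance pooled over genes.

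As background, cadherins join neighbouring cells by binding the same cadherin on the next cell and are anchored to actin through catenins, and claudins and occludin form the strands of tight junctions, which Tjp proteins hold to the cytoskeleton. Integrins are pairs of an alpha and a beta chain that bind fibronectin, laminin or collagen, and Mmp proteases, with their Timp inhibitors, cut and remodel that matrix. In Xenopus the blastula roof from which such explants are cut is held together by the maternal cadherin C-cadherin (cdh3), the later epidermis makes E-cadherin (cdh1), the neural plate turns to N-cadherin (cdh2), and the roof assembles fibronectin on its inner face.

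The arrays fitted their group labels: mcidas.S, the gene of multicilin, had signals of 384.2 and 141.5 in MCI-HGR explants, against 9.7 and 17.1 in ICD explants, and all 12 multiciliated cell markers were higher with MCI-HGR when the replicate number was a block in the fit. The arrays also parted by number. The median signal was 37.1 (MCI-HGR) and 37.6 (ICD) on the arrays numbered 2, against 44.2 and 45.4 on those numbered 1, so results are given for both comparisons. The highest of 17 tag control probe sets, which stand for background, lay between 9.2 and 13 on the 4 arrays. Of the 62 members kept, 49 were above it on all 4 arrays. Actin control probe sets, a sign of RNA quality, had a middle to 3' ratio of 0.569 and 0.401 on the MCI-HGR arrays, against 0.640 and 0.652 on the ICD arrays, and the part of this in the group results was not tested.

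**Figure D1:**
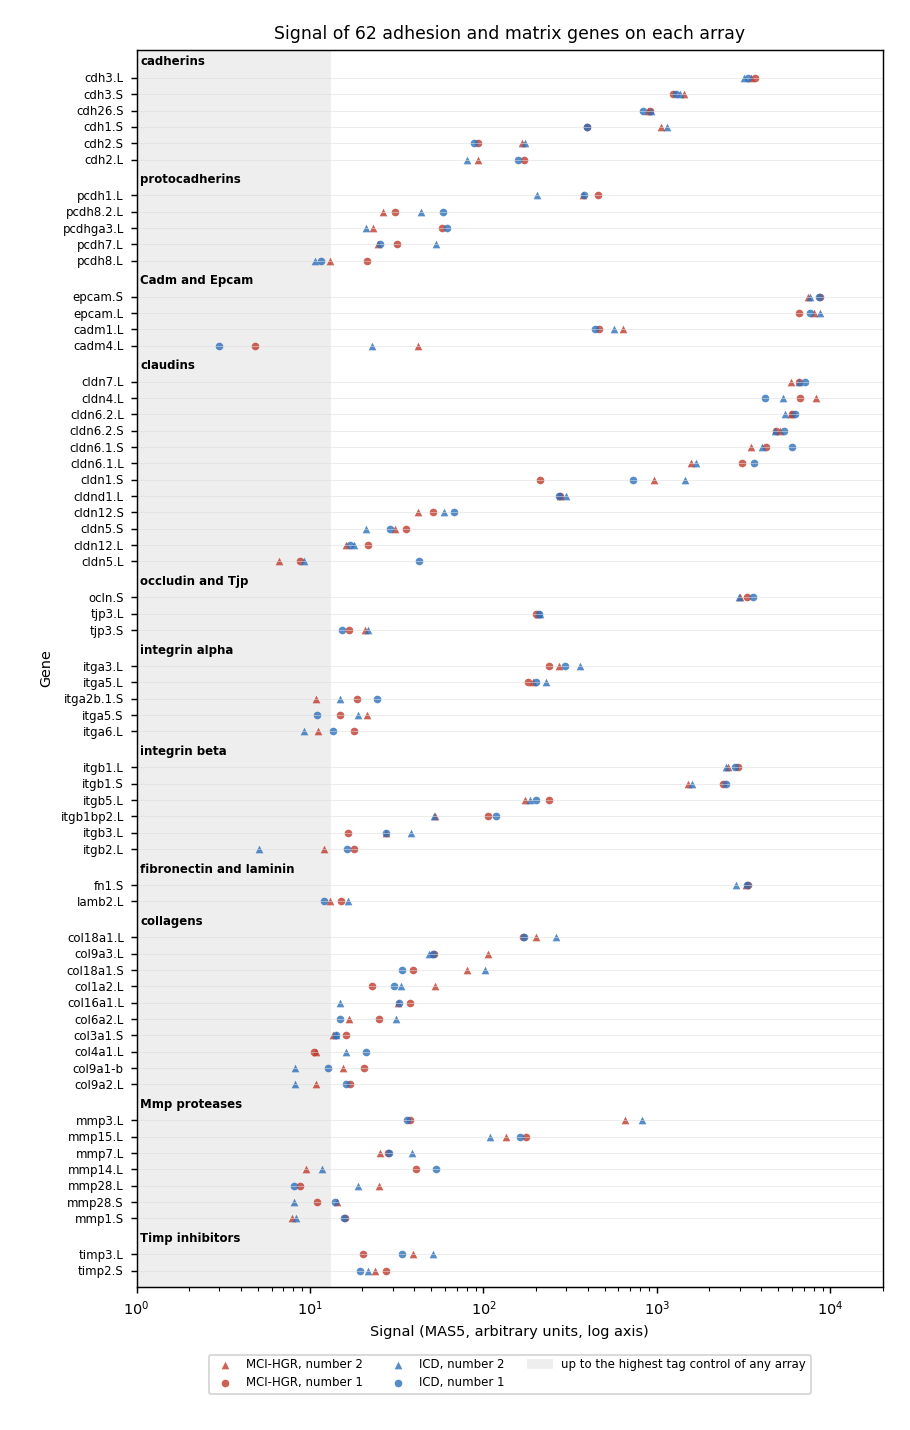
MAS5 signal (log axis) of the 62 members kept, by family, with 1 point per array: red for MCI-HGR, blue for ICD, triangles for number 2 and circles for number 1; the grey band ends at 13, the highest tag control of any array. Triangles lie to one side of circles in 37 of the 62 genes, as in mmp3.L and cdh1.S, and red to one side of blue in 16.

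Which families were read above background differed. All 6 cadherins kept, of 11 on the array, were above the tag controls on all 4 arrays, with signals between 80.1 and 3673, and the 5 left out (cdh6.L, cdh11.S, cdh13.L, cdh16.L and cdh20.L) stayed at 22.9 or below. Under claudin symbols 12 of 17 genes were kept, under integrin alpha symbols 5 of 9 and under integrin beta symbols 6 of 8. The symbol rule also took in cldnd1.L, a claudin domain gene, and itgb1bp2.L, an integrin-binding protein, which are counted here. Collagens were kept for 10 of 18 genes and Mmp proteases for 7 of 18. The highest signal of a collagen was 262.2, of an Mmp protease 824.3 and of a claudin 8205, although a signal also depends on the probes and does not rank the RNAs of different genes. None of the 40 members left out was above the tag controls on all 4 arrays, and 23 were above them on none. Among those 23 were col2a1.L, the main collagen of notochord and cartilage, col1a1.S, mmp2.S and tjp1.S, which read 0.6 to 0.8 on every array.

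The first comparison asked whether multicilin, with Notch held on, changed the adhesion and matrix genes of the ectoderm. Most members read alike in the groups: the MCI-HGR minus ICD difference was within 0.5 on the log2 scale in 48 of 62 members (77.4%, against 87.9% of all genes). Among genes above the tag controls on all 4 arrays the shares were 83.7% and 89.8%. The members were dimmer, with a median signal of 59.0 against 181.2 over all genes, and the part of this was not tested. The median difference was -0.0072 over the members and 0.0065 over all genes. In the limma fit with the group alone, 0 of 62 members and 0% of all genes passed an adjusted p of 0.05 over 9380 genes. At an unadjusted p of 0.05 that fit gave 1 member (cldn4.L), against 4.10% of all genes. With the replicate number as a block, 5 of 62 members passed, which is 8.06% beside a background of 10.0% of all genes. Of the 5, 2 were higher and 3 lower with MCI-HGR, beside 6.72% of all genes that were higher and 3.32% that were lower. The words rose and fell below refer to that blocked fit, whose adjusted p and 95% interval are the ones printed unless stated. With 1 residual degree of freedom against 26.2 prior ones, its SE, interval and p rest mostly on variance pooled over genes. They do not show how closely the 2 numbers agreed for a single gene. Without limma's intensity trend 0 members passed in the blocked fit. Both MCI-HGR arrays were above both ICD arrays in 7 members and below both in 9, which makes 16 of 62, beside 22.1% of all genes in which the groups did not overlap (12.6% above and 9.52% below).

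**Figure D2:**
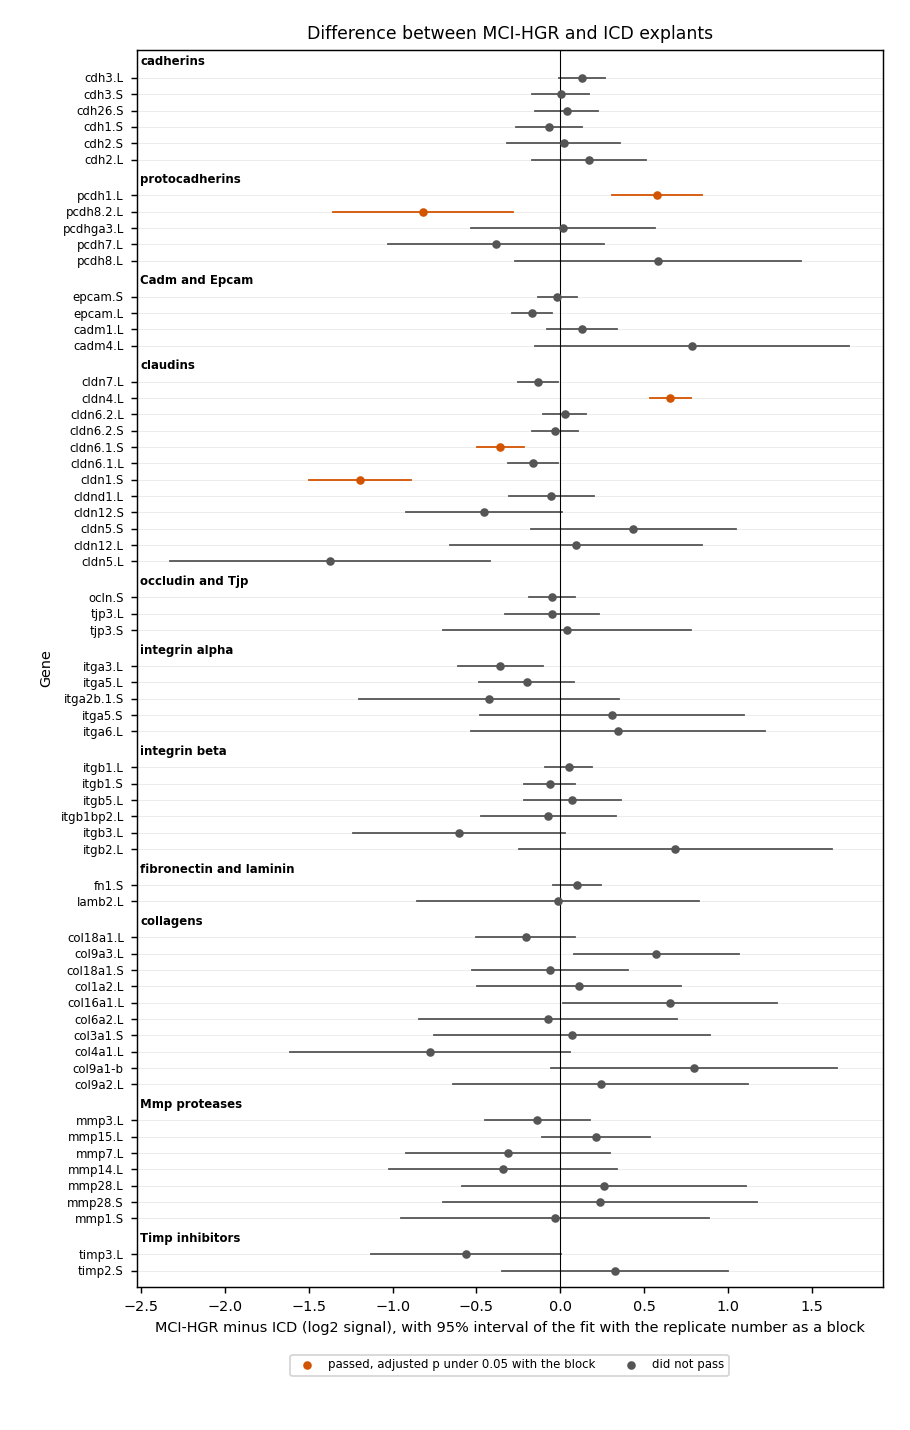
MCI-HGR minus ICD difference in log2 signal of each member kept, with the 95% interval of the blocked fit; orange marks the 5 members that passed. cldn4.L and pcdh1.L lie right of 0, cldn1.S, cldn6.1.S and pcdh8.2.L left of it, and the intervals are widest among dim genes such as cadm4.L, cldn5.L and itgb2.L.

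Claudins held 3 of the 5 genes that passed, and they went both ways. They were 3 of 12 genes kept under claudin symbols (25.0%), beside 10.0% of all genes. A family of 12 is too small to show whether its share differs from that. cldn4.L had signals of 6704 and 8205 in MCI-HGR explants, against 4169 and 5324 in ICD explants. The groups did not overlap, and the mean was 7454 ± 1062 with MCI-HGR and 4747 ± 817 with ICD (SD, n = 2 each). cldn4.L rose 1.57-fold, a log2 difference of 0.65 ± 0.06 (SE, adjusted p = 1.36e-09 by limma), and the fit with no block gave an adjusted p of 0.738. It was read by 2 further probe sets, with mean differences of 0.61 and 0.22. The probe set with 0.22 read 2178 and 2267 with MCI-HGR, against 2194 and 1670 with ICD, so it was higher only between the arrays numbered 2.

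cldn1.S had signals of 211 and 960 in MCI-HGR explants, against 728.5 and 1456.5 in ICD explants. Each MCI-HGR array was below the ICD array of its own number, while the groups overlapped, and in each group the array numbered 2 was brighter than the array numbered 1. cldn1.S fell to 0.437 of its ICD level (log2 difference -1.19 ± 0.15, adjusted p = 4.60e-07 by limma, 0.9998 with no block). The ratio was 0.290 between the arrays numbered 1 and 0.659 between those numbered 2. A second probe set of the gene read 9.4 and 29.7 with MCI-HGR, against 13.8 and 74.7 with ICD. Its 9.4 is not above the tag controls, and its 13.8 lies just above the highest one of that array, 13.0. Leaving out an array breaks the pairs, and the difference was then -0.10 without MCI-HGR number 1, -2.29 without MCI-HGR number 2, -0.70 without ICD number 2 and -1.69 without ICD number 1.

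cldn6.1.S had signals of 4264 and 3461 in MCI-HGR explants, against 5993 and 4045 in ICD explants. The MCI-HGR array was lower in both numbers and the groups overlapped. cldn6.1.S fell by 0.36 ± 0.07 on the log2 scale (adjusted p = 3.31e-04), and the difference was -0.07 without ICD number 1, -0.21 without MCI-HGR number 2 and -0.64 without ICD number 2. Its homeolog cldn6.1.L read 3080.5 and 1577 with MCI-HGR, against 3636 and 1676 with ICD, a difference of -0.16 that did not pass (adjusted p = 0.203). In the RefSeq gene order cldn6.1 lies directly beside cldn6.2 on both subgenomes, and cldn6.2.L and cldn6.2.S differed between the groups by 0.02 (95% interval -0.10 to 0.15) and -0.03 (-0.17 to 0.10).

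The other claudins did not pass. cldn7.L had signals of 6579 and 5927 in MCI-HGR explants, against 7107 and 6597 in ICD explants, and the groups did not overlap (difference -0.13, 95% interval -0.25 to -0.01, adjusted p = 0.194). cldn5.L, which in mammals seals blood vessels, read 8.8 and 6.6 with MCI-HGR, not above the tag controls, against 42.3 and 9.2 with ICD, of which only the first was above them. cldn3.L, the direct neighbour of cldn4.L in the gene order, was not above the tag controls on any array. The tight junction protein occludin (ocln.S) had signals of 3319 and 3006 with MCI-HGR, against 3580 and 2988 with ICD. The scaffold gene tjp3.L read 199.9 and 205.5 with MCI-HGR, against 208 and 211.3 with ICD. The 95% intervals of these 2 differences were -0.19 to 0.09 for ocln.S and -0.33 to 0.23 for tjp3.L on the log2 scale. A second, dim probe set of ocln.S read 26.2 and 8.9 with MCI-HGR, against 33.9 and 20.4 with ICD, a difference of -0.78. Its 8.9 is not above the tag controls, the highest of which was 9.2 on that array, so this difference rests partly on background. The mean over both probe sets of ocln.S gave -0.42 (adjusted p = 0.0767 by limma).

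Protocadherins, which adhere weakly and in the embryo help cells sort and move, held the other 2 genes that passed. They were 2 of 5 protocadherins kept (40.0%), beside 10.0% of all genes, and 5 genes are too few to compare the shares. pcdh1.L, in Xenopus the axial protocadherin of the notochord, had signals of 455.5 and 376.5 in MCI-HGR explants, against 381.1 and 203 in ICD explants. The MCI-HGR array was higher in both numbers, and the groups overlapped by the 376.5 of MCI-HGR number 2 and the 381.1 of ICD number 1. pcdh1.L rose 1.49-fold (log2 difference 0.57 ± 0.13, adjusted p = 0.00267). The difference was 0.26 between the arrays numbered 1 and 0.89 between those numbered 2, and it was 0.12 without ICD number 2 and 1.03 without ICD number 1. The call belongs to its brightest probe set, since the mean over its 4 probe sets gave 0.29 with an adjusted p of 0.495.

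pcdh8.2.L, a copy of the paraxial protocadherin gene known from gastrula mesoderm of Xenopus, had signals of 31.1 and 26.5 in MCI-HGR explants, against 58.8 and 43.6 in ICD explants. The groups did not overlap. pcdh8.2.L fell to 0.567 of its ICD level (log2 difference -0.82 ± 0.26, adjusted p = 0.0429), and the call was lost when arrays were centred on their medians (adjusted p = 0.0914) or quantile normalized (adjusted p = 0.0862), with no filter (adjusted p = 0.0598) and when each gene was the mean of its probe sets (adjusted p = 0.0627). Its direct neighbour pcdh8.L read 21.2 and 13.1 with MCI-HGR, against 11.6 and 10.7 with ICD, of which 11.6 is not above the tag controls, and did not pass (adjusted p = 0.518). The 20 mesoderm and notochord markers on the array summed to 3613 and 1151 in MCI-HGR explants and to 4325 and 1832 in ICD explants. Of these, 14 were kept, and 11 of the 14 were above the tag controls on all 4 arrays. In the blocked fit 1 of these 14 markers was higher (7.14%, beside 6.72% of all genes) and 3 were lower (21.4%, beside 3.32%). Of the 20 on the array, 3 were not above the tag controls on any of the 4 arrays. The part of these markers in the protocadherin values was not tested. In bulk explants fewer cells of a type and less RNA per cell cannot be told apart.

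No classical cadherin passed. Of 6 cadherins kept 0 passed, beside 10.0% of all genes, and 6 genes are too few to compare the shares. cdh3.L, C-cadherin, had signals of 3673 and 3482 in MCI-HGR explants, against 3347 and 3190 in ICD explants, where the fitted difference was 0.13 (95% interval -0.01 to 0.27, adjusted p = 0.292). Its homeolog cdh3.S read 1232 and 1435 with MCI-HGR, against 1294 and 1363 with ICD. E-cadherin, cdh1.S, which lies directly beside cdh3.S, read 393.3 and 1049.7 with MCI-HGR, against 397.6 and 1139.8 with ICD. Its group difference was -0.07 with a 95% interval of -0.27 to 0.13. N-cadherin differed by 0.17 (-0.17 to 0.51) in cdh2.L and by 0.02 (-0.32 to 0.35) in cdh2.S. The other probe sets of cdh2.L differed by -0.35 to 0.12. The snail repressor snai1.S, which represses cdh1 in other tissues, had signals of 64.2 and 30.9 with MCI-HGR, against 146.4 and 69.7 with ICD. It fell (log2 difference -1.18, adjusted p = 1.05e-04) and was the 1 gene of 8 mesenchyme transcription factors to pass. Of all genes 10.0% passed either way and 3.32% fell. A list of 8 is too short to show whether its share differs from these.

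Of the remaining adhesion molecules, Epcam, which also holds epithelial cells together, was read by both homeologs. epcam.L had signals of 6590 and 7989 in MCI-HGR explants, against 7603 and 8759 in ICD explants, a difference of -0.17 just outside the threshold (adjusted p = 0.0587). epcam.S read 8684 and 7390 with MCI-HGR, against 8639.5 and 7630 with ICD, and differed by -0.02 (95% interval -0.14 to 0.10). cadm1.L, an immunoglobulin-like adhesion molecule, read 466 and 635.6 with MCI-HGR, against 440.6 and 562.2 with ICD, and did not pass (adjusted p = 0.580); its 3 other probe sets differed by -0.87 to 0.10.

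**Figure D3:**
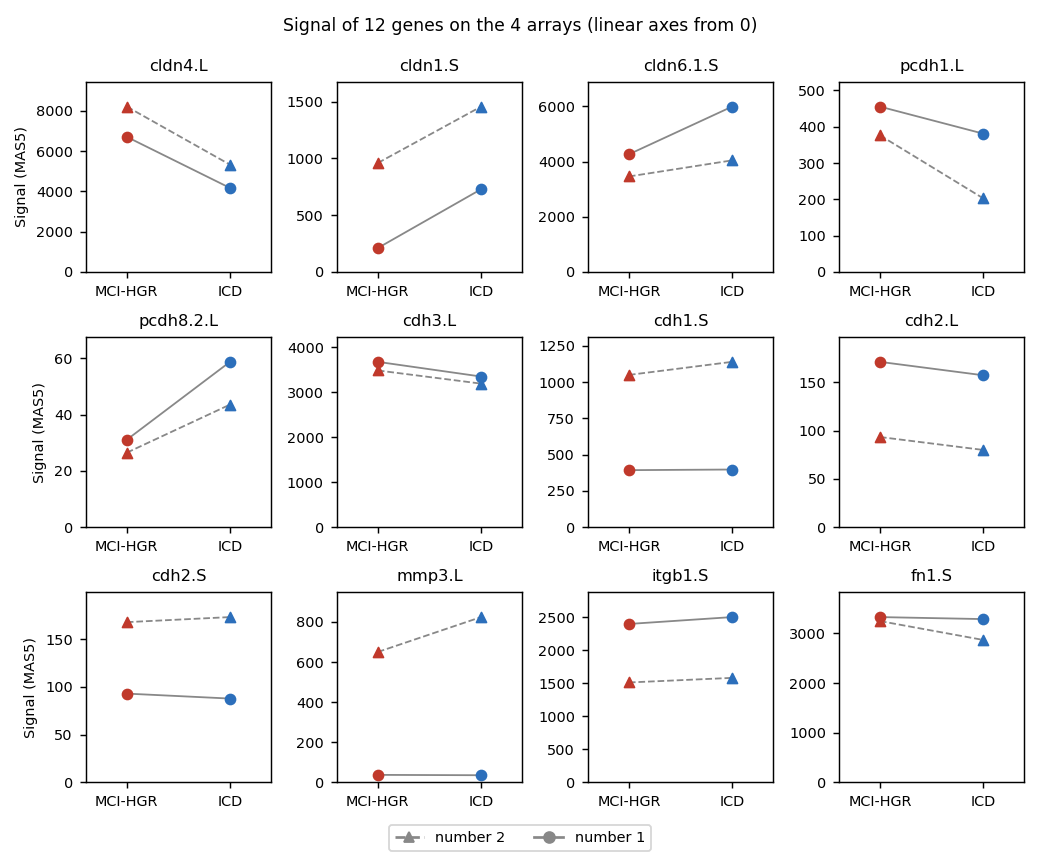
MAS5 signal (linear axes from 0) of 12 members in MCI-HGR and ICD explants; triangles with dashed lines join the arrays numbered 2 and circles with solid lines those numbered 1. Both lines slope the same way in the 5 genes that passed with the block. They also do so in cdh3.L, cdh1.S, cdh2.L, itgb1.S and fn1.S, which did not pass. The arrays of the 2 numbers do not overlap in mmp3.L, cdh1.S, cdh2.L, cdh2.S and itgb1.S. The same holds for cldn1.S, cldn6.1.S and pcdh1.L, which passed, and for fn1.S.

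None of the 11 genes kept under integrin symbols passed, beside 10.0% of all genes, and 11 genes are too few to compare the shares. Among the 11 is itgb1bp2.L, an integrin-binding protein and not a chain. itgb1.L, the beta chain that pairs with most matrix-binding alpha chains, had signals of 2938 and 2572 in MCI-HGR explants, against 2819 and 2505 in ICD explants, and itgb1.S had 2398 and 1513, against 2502 and 1582. The groups overlapped for both, and the 95% intervals of the differences were -0.09 to 0.19 and -0.22 to 0.09. For itgb1.L the direction is not settled: a dimmer probe set differed by -0.41, and the mean over both gave -0.18. itga5.L, which with the beta chain forms the fibronectin receptor, read 180.5 and 192.1 with MCI-HGR, against 200.5 and 228.1 with ICD. itga3.L, a laminin receptor chain, read 238.6 and 271.4 with MCI-HGR, against 294.2 and 361.3 with ICD. By these probe sets both chains were lower on both MCI-HGR arrays than on both ICD arrays, with differences of -0.20 (adjusted p = 0.4998) and -0.36 (adjusted p = 0.0649). A second probe set of itga5.L went the other way, with 118.5 and 341 in MCI-HGR explants against 73.4 and 243.7 in ICD explants, and the mean over both was 0.19.

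Of the fibronectin and laminin members 0 of 2 passed, and of the collagens 0 of 10, beside 10.0% of all genes. These are too few genes to compare the shares, and for the dim ones the intervals were wide. Fibronectin, fn1.S, had signals of 3326 and 3246 in MCI-HGR explants, against 3286 and 2867 in ICD explants, a difference of 0.10 (95% interval -0.04 to 0.24). The 1 laminin chain kept, lamb2.L, read 15 and 13.1 with MCI-HGR, against 12.1, not above the tag controls, and 16.6 with ICD, and its interval ran from -0.86 to 0.82. col18a1.L, a collagen of basement membranes, read 168.2 and 199.8 with MCI-HGR, against 170.9 and 262.2 with ICD (difference -0.21, adjusted p = 0.497). col9a3.L read 51.8 and 105.6 with MCI-HGR, against 51.2 and 48.3 with ICD, so that a single array, MCI-HGR number 2, stood above the rest (difference 0.57, adjusted p = 0.163). Over the 7 collagens above the tag controls on all 4 arrays the differences ran from -0.21 to 0.65, with a median of 0.07, and the other 3 (col4a1.L, col9a1-b and col9a2.L) had a signal not above them on at least 1 array.

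Of the Mmp proteases 0 of 7 passed, and of the Timp inhibitors 0 of 2, beside 10.0% of all genes. These too are few genes for comparing the shares. The stromelysin mmp3.L differed between the groups by -0.14 (95% interval -0.45 to 0.17), and the membrane protease mmp15.L, with 174.8 and 135.7 in MCI-HGR explants against 162.3 and 109 in ICD explants, by 0.21 (-0.11 to 0.53). timp3.L, the inhibitor that binds to matrix, read 20.1 and 39.4 with MCI-HGR, against 33.7 and 51.3 with ICD, lower with MCI-HGR in each number (adjusted p = 0.267). timp2.S read 27.5 and 23.8 with MCI-HGR, against 19.4 and 21.5 with ICD (adjusted p = 0.691). Over all 62 members the 95% interval lay within 0.5 either side of 0 for 23 (37.1%, against 51.5% of all genes). It lay within 1 for 41 (66.1%, against 83.7%), and for the other 21 it reached past a 2-fold change. Above the tag controls on all 4 arrays these shares were 46.9% (against 55.6% of all such genes) and 79.6% (against 89.1%).

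Genes around these families were described from lists of partners. Of 23 junction partners tested, which include catenins, nectins and polarity proteins, 0 passed in the blocked fit, beside 10.0% of all genes, and 0 in the fit with no block, where 0 also had an unadjusted p of 0.05, beside 4.10% of all genes. Their median difference was 0.03. The catenin ctnnb1.S, which ties cadherins to actin, read 6552 and 6319 with MCI-HGR, against 6439 and 5474 with ICD, and ctnnb1.L read 4867 and 4879, against 4910 and 4603. Of 24 integrin partners 0 rose and 4 fell (16.7%, beside 3.32% of all genes that fell and 10.0% that passed either way), and the list's median was -0.14. The 4 were src.S, a kinase of focal adhesions (log2 difference -0.53), the tetraspanin cd81.L (-0.45), the adhesion protein zyx.S (-0.38) and the actin crosslinker actn1.L (-0.35).

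Of 45 other matrix and matrix enzyme genes 0 rose and 4 fell, with a median of -0.07. The 8.89% that passed is near the 10.0% of all genes that passed either way. All of it fell, beside 3.32% of all genes that fell. Osteonectin, a matrix protein that binds collagen, was read by both homeologs: sparc.L had signals of 29.2 and 33.6 with MCI-HGR, against 64.3 and 85.5 with ICD, and sparc.S had 35.5 and 56.8, against 55.2 and 136.6. Their differences were -1.24 ± 0.24 (adjusted p = 3.49e-04) and -0.95 ± 0.22 (adjusted p = 0.00320). Thrombospondin thbs1.S read 90.5 and 107.2 with MCI-HGR, against 162.2 and 184.9 with ICD (log2 difference -0.81, adjusted p = 5.05e-04), and the elastic fibre protein emilin1.L was the fourth (-0.84, adjusted p = 0.0498). The groups did not overlap for sparc.L, thbs1.S and emilin1.L.

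The second comparison set the arrays numbered 2 against those numbered 1, with the group as a term, and more members differed here than between the groups. This fit has the same terms as the blocked one, so its SE and p also rest mostly on variance pooled over genes. In the limma fit 26 of 62 members passed (41.9%, beside a background of 48.7% of all genes), a share not above that of all genes. Of these, 12 were higher and 14 lower on the arrays numbered 2, beside 20.3% of all genes that were higher and 28.4% that were lower. The median difference of all genes was -0.10 on the log2 scale, and differences relative to it are given beside those as read. The split depended on scaling: with each array centred on its median 22 members were higher and 6 lower (all genes 3295 and 1297), and with quantile normalization 12 and 16 (all genes 1959 and 2076), beside 1903 and 2662 for all genes as read. Of the 26, cadm4.L, cldn5.L, itgb2.L and mmp28.L had a signal not above the tag controls on at least 1 array, so that their tests rest partly on background; among members above the controls on all 4 arrays 22 of 49 passed (44.9%, against 50.1% of all such genes). A difference beyond 1 was found in 12 members (19.4%, against 11.5% of all genes). Above the controls on all 4 arrays it was found in 8 of 49 (16.3%, against 9.8% of all such genes). In 37 members the arrays of the 2 numbers did not overlap, 16 above and 21 below, beside 68.0% of all genes.

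**Figure D4:**
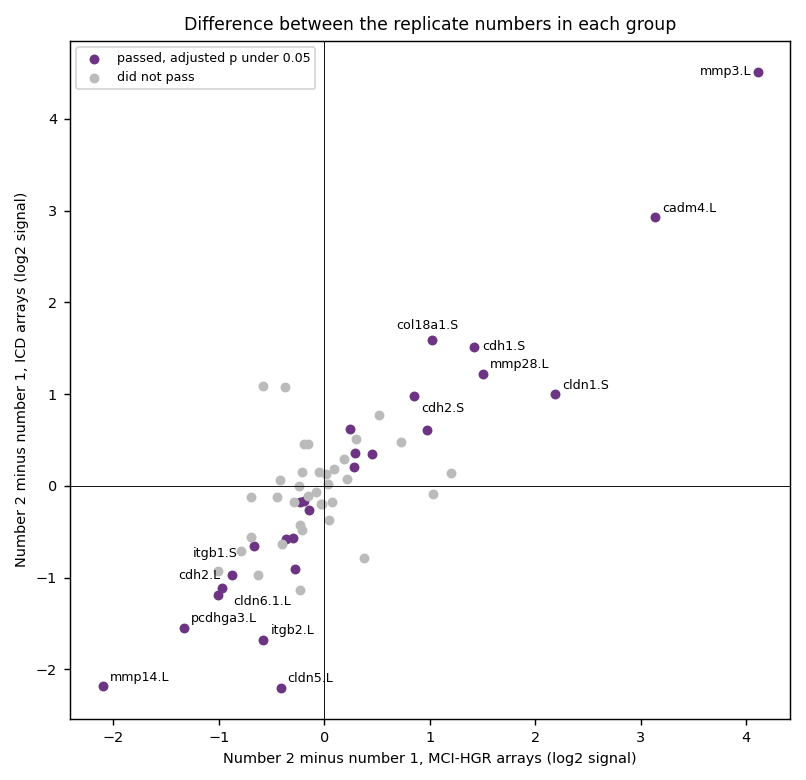
Difference between the arrays numbered 2 and 1 in log2 signal, in MCI-HGR explants (horizontal) and in ICD explants (vertical), for the 62 members kept; purple marks the 26 that passed. mmp3.L lies above 4 on both axes and mmp14.L beyond -2 on both; cadm4.L, cldn5.L, itgb2.L and mmp28.L include signals not above the tag controls.

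Matrix proteases held the widest differences in both directions. mmp3.L had signals of 650.4 (MCI-HGR) and 824.3 (ICD) on the arrays numbered 2, against 37.7 and 36.0 on those numbered 1. The arrays of the 2 numbers did not overlap, and the difference was 4.31 ± 0.15 (SE; 4.42 relative to all genes; adjusted p = 1.92e-18), or 19.9-fold. mmp14.L, a protease anchored in the cell membrane, went the other way, with 9.5 and 11.7 on the arrays numbered 2, against 40.8 and 53.1 on those numbered 1 (difference -2.14 ± 0.33, adjusted p = 5.29e-06; -2.04 relative to all genes). Its signals on the arrays numbered 2 lay just above the highest tag controls there, 9.2 (MCI-HGR) and 10.0 (ICD), so the size of this difference rests partly on background. A dimmer probe set of mmp14.L differed by -0.45, and the mean over both gave -1.3. mmp28.L, epilysin, read 25.0 and 18.9 on the arrays numbered 2, against 8.8 and 8.1, not above the tag controls, on those numbered 1, at least 1.71-fold higher when number 1 is set to the tag controls. mmp7.L, the direct neighbour of mmp3.L in the gene order, read 25.4 and 38.9 on the arrays numbered 2, against 28.3 and 28.4 on those numbered 1 (adjusted p = 0.705).

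Of 6 cadherins kept, 3 passed by number, a share near the 48.7% of all genes. cdh1.S had signals of 1049.7 (MCI-HGR) and 1139.8 (ICD) on the arrays numbered 2, against 393.3 and 397.6 on those numbered 1. The arrays did not overlap, and the difference was 1.47 ± 0.10 (1.57 relative to all genes; adjusted p = 1.10e-12), or 2.77-fold. Its neighbour cdh3.S differed by 0.15 and cdh3.L by -0.07, and neither passed (adjusted p = 0.140 and 0.375). The homeologs of N-cadherin went opposite ways: cdh2.L had 93.5 and 80.1 on the arrays numbered 2, against 171.4 and 157.5 on those numbered 1, and cdh2.S had 167.8 and 173.1, against 93.0 and 87.8. Their differences of -0.92 ± 0.17 and 0.92 ± 0.16 both passed (adjusted p = 4.02e-05 and 3.86e-05), and stayed opposite when arrays were centred (-0.66 and 1.18) or quantile normalized (-0.79 and 1.05). A second bright probe set of cdh2.L differed by -1.11 and 3 dimmer ones by -0.02 to -0.39.

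Of 12 homeolog pairs with both copies kept, 4 had opposite signs between the numbers, and both copies passed in 2 of these, cdh2 and epcam. Pairs were not counted over all genes, so these counts do not show whether the members differ from other genes. epcam.L differed by 0.24 and epcam.S by -0.21, while with arrays centred on their medians epcam.S was at 0.06 and did not pass. Near-identical homeologs can share probes, which was not examined for these pairs.

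Claudins and the other adhesion genes went both ways as well. cldn1.S differed by 1.59 ± 0.15 (1.70 relative to all genes; adjusted p = 1.10e-09), by 2.19 within MCI-HGR explants and 1.0 within ICD explants. cldn6.1.L had 1577 and 1676 on the arrays numbered 2, against 3080.5 and 3636 on those numbered 1 (difference -1.04 ± 0.07, adjusted p = 4.08e-12), and cldn6.1.S differed by -0.43 (adjusted p = 6.48e-06). The adhesion gene cadm4.L read 42.2 and 22.8 on the arrays numbered 2, against 4.8 and 3.0, below the tag controls, on those numbered 1, at least 2.44-fold higher; it passed the filter through the arrays numbered 2. The clustered protocadherin pcdhga3.L had 23.0 and 21.1 on the arrays numbered 2, against 57.9 and 61.6 on those numbered 1 (difference -1.44 ± 0.27, adjusted p = 6.48e-05), and its dimmer probe set differed by -0.42. cldn5.L, with 6.6 and 9.2 on the arrays numbered 2 against 8.8 and 42.3 on those numbered 1, was above the tag controls on ICD number 1 alone, and no fold is given.

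Among the integrins, itgb1.S had signals of 1513 (MCI-HGR) and 1582 (ICD) on the arrays numbered 2, against 2398 and 2502 on those numbered 1. The arrays did not overlap, and the difference was -0.66 ± 0.07 (-0.56 relative to all genes; adjusted p = 3.02e-08), with the same direction in itgb1.L (-0.18, adjusted p = 0.0321), which was at 0.08 with arrays centred on their medians. itgb2.L, the beta chain of leukocyte integrins, read 12 (MCI-HGR) and 5.1 (ICD) on the arrays numbered 2, against 17.9 and 16.3 on those numbered 1. The 5.1 is not above the tag controls, and the call was lost with centred arrays (adjusted p = 0.138). None of the 5 integrin alpha chains kept passed by its brightest probe set, beside 48.7% of all genes. A family of 5 is too small to compare the shares. The second probe set of itga5.L nonetheless differed by 1.63. fn1.S differed by -0.12 (adjusted p = 0.167 by limma).

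Of the collagens, both homeologs of col18a1 were higher on the arrays numbered 2. col18a1.S had 80.2 (MCI-HGR) and 101.8 (ICD) on the arrays numbered 2, against 39.4 and 33.7 on those numbered 1 (difference 1.31 ± 0.23, adjusted p = 2.55e-05; 1.41 relative to all genes), and col18a1.L differed by 0.43 (adjusted p = 0.0135). The other 8 collagens kept did not pass. timp3.L had 39.4 and 51.3 on the arrays numbered 2, against 20.1 and 33.7 on those numbered 1 (difference 0.79, adjusted p = 0.0194).

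Markers of several cell types differed by number, and their counts stand beside 20.3% of all genes that were higher and 28.4% that were lower on the arrays numbered 2. Sums cover every gene of a list on the array, and counts cover the genes kept. Epidermis markers, of which the 21 kept of 23 were above the tag controls on all 4 arrays, summed to 75776 (MCI-HGR) and 76697 (ICD) on the arrays numbered 2, against 48473 and 45147 on those numbered 1, with 14 higher (66.7%) and 1 lower. Neural markers summed to 4596 and 3890.5, against 9640.4 and 10419, with 2 of 14 higher and 9 lower (64.3%). Mesoderm and notochord markers summed to 1151 and 1832, against 3613 and 4325, with 0 of 14 higher and 8 lower (57.1%), and the notochord gene tbxt.L read 22.2 and 13.2 on the arrays numbered 2, against 273.1 and 668.9 on those numbered 1. Endoderm markers, with 2 of 12 higher and 2 lower, and multiciliated cell markers, with 3 of 12 higher and 3 lower, passed in shares near or under those of all genes, and of the few ionocyte and neural crest markers 1 of 7 and 1 of 6 were higher and 3 of each lower. Some markers on the array were not above the tag controls on any of the 4 arrays. These were 3 of 20 mesoderm and notochord, 3 of 12 neural crest and 2 of 20 neural markers. The same held for 1 of 23 epidermis, 1 of 17 endoderm and 1 of 9 ionocyte markers, and for 0 of 12 multiciliated cell markers. The part of the marker lists in the differences of cdh1.S, cdh2.L, mmp3.L and the other members by number was not tested. The number, the signal distribution of the arrays and the makeup of the explants cannot be told apart.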

How the data were processed

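Each probe set had a linear signal intensity per array, deposited by the authors; per the submitters' processing notes it came from MAS5, whose version, scaling target and detection calls were not stated in the sources used here. Symbols came from the platform annotation, and 101 of 102 members matched the RefSeq table (assembly v10.1), used for names and gene neighbours. log2 signals of 24404 probe sets (lowest 25%, below about 10.6, and 96 controls left out) gave 9380 genes by brightest probe set. limma 3.58.1 in R 4.3.3 (eBayes with an intensity trend, two-sided, Benjamini-Hochberg over all genes) compared the groups, without a block (2 residual degrees of freedom) and with replicate number as a block (1 residual, prior 26.2), and the numbers with the group as a term. The fits were also run on data simulated from the blocked model, which cannot check the assumptions of that model, and no conclusion is drawn from that run. Members and lists were chosen with earlier results of these data known. Named were members that passed, the 2 brightest per family, the 10 widest number differences, and up to 4 genes per list; neighbours, homeologs and other members were named after their values were seen, and so was the use of tag controls as background. Alternatives changed scaling, offset, filter, probe set rule, variance model and arrays. The number of arrays limits precision.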

Additional observations from a re-analysis of the deposited data

How the results depend on the processing

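The fit with the group alone gave 0 members past the threshold under each alternative run without a block, and the replicate number as a block gave 5. Arrays with the same number deviated together from their group means (r = 0.795 across 9380 genes, which are not independent), but with 2 pairs and no label this does not establish a pairing. With the block, 16 added to each signal gave 6 members (cldn5.L added), centring each array on its median 4, a filter at the median signal 4, the mean over probe sets 3, no filter 4 and quantile normalization 5 (epcam.L in, pcdh8.2.L out). cldn1.S, cldn4.L and cldn6.1.S passed in each of these, and without the intensity trend 0 members passed with the block, for which the cause was not tested. The counts under these alternatives are given without the share of all genes. They do not show whether the members moved more than other genes. Counting only members above the tag controls on all 4 arrays, an alternative chosen after seeing the data, kept 5 with the block. That is 10.2%, beside 10.3% of all such genes. The median group difference of -0.0072 ran from -0.0477 to 0.0416 when 1 array was left out. The median number difference of -0.113 was 0.15 with centred arrays and 0.064 with quantile normalization. It was -0.18 with no filter, -0.0537 with a filter at the median signal, and -0.153 to -0.0958 within 1 group. Without the group term 13 members passed in place of 26, and 2286 of all 9380 genes passed in place of 4565. Of single number differences retested under an alternative, 61 kept their call and 13 lost it, all in cldn1.S, cldn5.L and itgb2.L; those with 1 array left out are values with no test. Group differences near 0 that were not called changed sign in itga5.L and itgb1.L with the mean over probe sets, and in cdh3.S, epcam.S, itgb1.L and lamb2.L with another scaling. Leaving out 1 array, which breaks the pairs, changed the sign in cdh3.S, epcam.S, itgb1.L, itgb1.S, lamb2.L, ocln.S, col18a1.L, fn1.S, mmp15.L and mmp3.L. For mmp3.L the difference was then -2.4 without ICD number 1 and 2.12 without ICD number 2. Signals near the tag controls limit what dim collagens, proteases and integrins can show.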
